A study of Homo sapiens with 7 samples.

Results

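The genes described here are 9 genes of the p53 pathway, MDM2, MDM4, BAX, BBC3, PMAIP1, FAS, GADD45A, SESN1 and RRM2B. They were taken by gene name from a table of 22670 entries with 20404 distinct names, and each name had a single entry. The transcription factor p53 is stabilised after DNA damage and other stress, binds response elements near its target genes, and starts cell cycle arrest, DNA repair or apoptosis. MDM2 and MDM4 hold p53 in check, and MDM2 is itself a p53 target, which closes a feedback loop. BBC3 (PUMA) and PMAIP1 (NOXA) are BH3-only proteins that neutralise anti-apoptotic BCL2 proteins, BAX permeabilises the mitochondrial membrane, and FAS is a death receptor at the cell surface. Human embryonic stem cells (hESCs) are known to die readily by mitochondrial apoptosis after DNA damage.

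RNA-seq was carried out on SEES-3 hESCs, an established human line, with 1 library for each of 7 conditions. All cells carried the reverse Tet-transactivator and a piggyBac insertion with a doxycycline (Dox)-responsive transgene, IRES-βgeo and a puromycin resistance gene, and were kept as stable clones selected with puromycin. JMJD3c-hESCs, whose transgene encodes an HA-tagged catalytic part of the H3K27me3 demethylase JMJD3 with a nuclear localization signal, were sampled without Dox (Day 0) and after 1, 2, 3 and 4 days of Dox at 1 µg/ml. JMJD3c mut-hESCs, which carry a catalytically inactive form, were collected without Dox and, with Dox, at Day 4. Growth was feeder-free, in StemFit AK-03 on iMatrix-511. The number of clones behind each line is not given in the sources used here. KDM6B, the gene whose product the transgene derives from, was at 3.45 FPKM (fragments per kilobase of transcript, scaled to the mapped reads of the library) at Day 0, between 158 and 282 FPKM on the 4 Dox days, and at 2.40 and 454 FPKM in the mutant line without and with Dox. All 10 hESC markers examined were above 4 FPKM in every library. Their summed level was 2815 FPKM at Day 0 and 2023 at Day 4, and 2699 and 2361 in the mutant line without and with Dox. The sum of 10 mesoendoderm markers went from 5.49 FPKM at Day 0 to 18.7, 98.8, 206.7 and 334 on Days 1 to 4, against 11.7 and 8.33 in the mutant line. The sum of 5 neuroectoderm markers was 133 FPKM at Day 0, 177, 199, 223 and 231 on Days 1 to 4, and 106 and 130 in the mutant line. The highest single marker made up most of it, with 106 FPKM at Day 0 and 162 at Day 4. The lowest was at 0 and 0.105 FPKM, and 3 and 4 of the 5 were above 4 FPKM. The cells of the later Dox days therefore differed from Day 0 in the summed levels of these markers too. The part of these differences in the values below was not tested. Fewer cells of a type and less RNA per cell cannot be told apart in such bulk samples.

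No condition had a replicate. The differences below could therefore not be set against the spread between cultures, and p-values are not given. The error available for each value is the 95% interval that Cufflinks gives for the estimate in 1 library, which does not cover variation between cultures. Genes were called with the cutoffs of the study. An upregulated gene had an FPKM ratio above 2 and a treated sample above 4 FPKM, and a downregulated gene had a ratio below 0.5 and an untreated sample above 4 FPKM. As a second reading, it was asked whether the intervals of both libraries were apart. Depth was estimated from the spacing of low FPKM values at 1780000 reads for Day 0, the shallowest library, and at 2430000 to 3660000 for the others. These estimates are approximate, and would be higher if the spacing stood for more than 1 read.

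The promoter windows of RefSeq, which run from 250 bases before to 50 bases after each start, were searched for the p53 response element consensus to show which of the genes hold such letters at a start site. The consensus consists of 2 half-sites of 10 bases, which may be up to 13 bases apart. The C and the G at the core of each half-site were required, and mismatches were counted over the other positions. The consensus is its own reverse complement, so both strands are covered. Of the 9 genes, 7 had 14 windows in the table, and GADD45A and RRM2B had no entry. Within 3 mismatches, a limit chosen after the matches were seen, 5 of the 14 windows held a site, against 12.8% of all 35116 windows, and each of the 5 was of 20 bases with no spacer. These windows belong to 4 of the 7 genes, against 15.3% of all 27305 genes with windows. Within 2 mismatches they were 3 windows, of MDM2 and FAS, against 2.93% of all windows and 3.62% of all genes. Overlapping windows of 1 gene can hold the same site, as they did in MDM2. The core C and G are in capitals, and the letters run 5′ to 3′ on the strand of the gene.
MDM2: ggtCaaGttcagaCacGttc
FAS: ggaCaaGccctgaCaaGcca
SESN1: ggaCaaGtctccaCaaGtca
PMAIP1: gagCgtGtccgggCagGtcg
The positions were obtained by matching each window to GRCh37, the assembly of hg19. The MDM2 site (2 mismatches, chr12:69202703-69202722, plus strand) lies 94 bases before a RefSeq start inside the gene. It falls in an intron of the 6 of 36 GENCODE transcripts that span it, and MDM2 is known to have a p53-responsive promoter inside the gene. The FAS site (2 mismatches, chr10:90751066-90751085, plus strand) lies 122 bases before an internal start and is spanned by 12 of 16 transcripts, 2 of whose annotated exons overlap it. The SESN1 site (3 mismatches, chr6:109330221-109330240, minus strand) lies 49 bases before an internal start, in an intron of 2 of 7 transcripts. The PMAIP1 site (3 mismatches, chr18:57567043-57567062, plus strand) lies 185 bases before the start, outside all 3 transcripts. In the windows of MDM4 and BBC3 the best match had 5 mismatches, and in that of BAX 6. A match is a description of letters only; no binding was measured in these libraries.

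At Day 4 of Dox, 3 of the 9 genes were downregulated relative to Day 0, against 7.56% of the 10247 genes above 4 FPKM in either library. They were the BH3-only genes BBC3 and PMAIP1 and the p53 antagonist MDM2. A single gene, GADD45A, was upregulated, against 5.87% of all genes. For PMAIP1 alone the intervals at Day 4 and Day 0 were apart. Over all genes, intervals were apart and lower for 7.00% and apart and higher for 5.15%. On the scale of log2(FPKM + 1), the 9 genes had a median fold change of -0.26, beside -0.06 over all genes above 4 FPKM in either library. Of the 9 values, 7 were below 0, beside 55.2% of those genes. FAS is the only one of the 9 that was never above 4 FPKM, so it could not be called. The median of -0.26 is the value of FAS itself, which rests on few reads. The genes beside it were all above 4 FPKM, so the sets are not alike. On the earlier days the calls were fewer or differed. On Day 1, 2 genes were upregulated (MDM4 and GADD45A) and 1 was downregulated (MDM2), with 6.75% of all genes called either way. On Day 2, 1 gene was upregulated (MDM4), with 8.14% of all genes called. On Day 3, 2 were upregulated (MDM4 and GADD45A) and 1 was downregulated (MDM2), with 9.21% of all genes called. In the mutant line none of the 9 was called with Dox against without. There, 1.25% of all genes were upregulated and 1.53% downregulated, and intervals were apart and lower for 1.68% and apart and higher for 1.47%, but for none of the 9. The median of the 9 in the mutant line was -0.07, again the value of FAS, beside 0.00 over all genes above 4 FPKM. The 4 days share their Day 0 library, so their calls are not independent of each other.

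**Figure D1:**
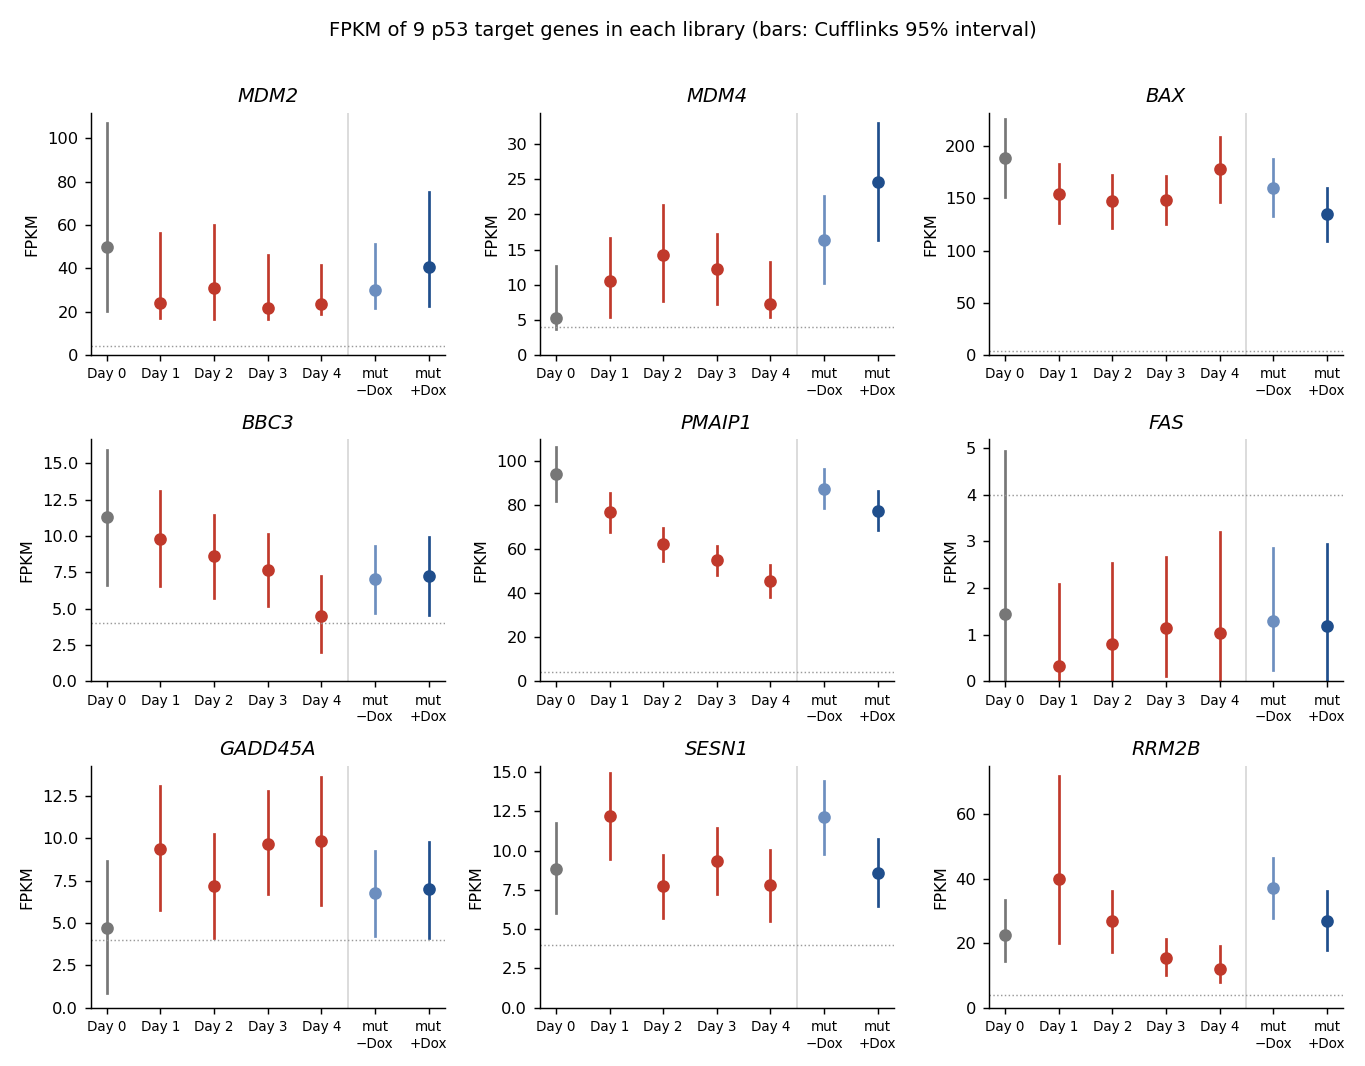
FPKM (y axis, each panel on its own scale from 0) of the 9 genes in the 7 libraries (x axis; grey, Day 0; red, Dox days of JMJD3c-hESCs; blue, JMJD3c mut-hESCs), with bars for the Cufflinks 95% interval in each library and a dotted line at 4 FPKM. PMAIP1 goes down from 94.2 FPKM at Day 0 to 45.7 at Day 4 with short bars, whereas the bars of MDM2, GADD45A and FAS at Day 0 overlap those of every Dox day.

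**Figure D2:**
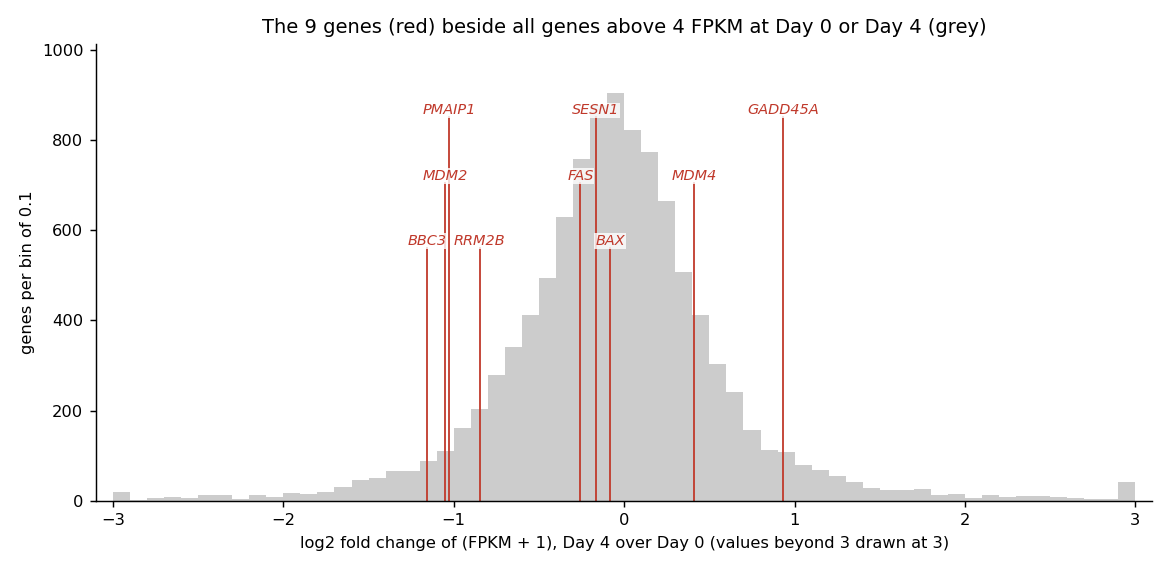
Number of genes (y axis) by log2 fold change of FPKM + 1 at Day 4 over Day 0 (x axis) for all genes above 4 FPKM in either library, with the 9 genes as red lines whose heights carry no value. BBC3, MDM2 and PMAIP1 lie between -1.16 and -1.03, GADD45A lies at 0.93, and the remaining genes lie between RRM2B at -0.85 and MDM4 at 0.41.

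Of the inhibitors of p53, MDM2 (ENSG00000135679, chr12:69201956-69239214 of hg19, plus strand) encodes the ubiquitin ligase that marks p53 for degradation. It was at 50.05 FPKM at Day 0, at 23.8, 31.0, 21.6 and 23.6 on Days 1 to 4, and at 30.2 and 40.4 in the mutant line without and with Dox. Day 0 was the highest of the 7 libraries and all 4 Dox days were below it, but the untreated mutant line lay within the range of the Dox days. The ratio of Day 4 to Day 0 was 0.472, a log2 fold change of -1.05 ± 0.71 (SE from the Cufflinks intervals). The Day 0 interval ran from 20.5 to 107 FPKM and held every other value of the gene. Relative to the untreated mutant line the Day 4 ratio was 0.783, which did not pass the cutoff. When the libraries were scaled by their sums without the highest genes, the ratio to Day 0 was 0.501, just outside the cutoff. With Dox, the mutant line gave a ratio of 1.34.

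MDM4 (ENSG00000198625, chr1:204485511-204542871, plus strand), which binds the transactivation domain of p53, gave another order. It was at 5.24 FPKM at Day 0, at 10.6, 14.3, 12.2 and 7.31 on Days 1 to 4, and at 16.4 and 24.7 in the mutant line without and with Dox. Day 0 was the lowest library and both mutant libraries were above all 5 of the JMJD3c line. Relative to Day 0, MDM4 was upregulated on Days 1, 2 and 3, with ratios of 2.02, 2.72 and 2.33, and at Day 4 the ratio was 1.39. The Day 0 interval, 3.64 to 12.7 FPKM, overlapped those of all 4 Dox days, and the Day 1 ratio was close to the cutoff. Relative to the mutant line, the same Day 4 library was downregulated, with a ratio of 0.445 to the culture without Dox and of 0.296 to that with Dox, and in the latter pair the intervals were apart. The untreated lines themselves differed in MDM4 by a ratio of 3.13, mutant over JMJD3c, a call in a comparison that gave calls for 9.79% of all genes. The intervals of the untreated lines overlapped. The direction of MDM4 at Day 4 therefore depended on the untreated library used. The ratio of MDM2 to MDM4 in FPKM was 9.55 at Day 0, between 1.77 and 3.23 on the Dox days, and 1.84 and 1.64 in the mutant line. Day 0 was thus above the other 6 libraries, but no error was calculated for this ratio. It rests on 2 wide Day 0 intervals, 20.5 to 107 FPKM for MDM2 and that of MDM4 given above.

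BAX (ENSG00000087088, chr19:49458117-49465055, plus strand), the pore-forming effector of mitochondrial apoptosis, was the most abundant of the 9 genes in every library. It was at 189 FPKM at Day 0, at 155, 147, 148 and 178 on Days 1 to 4, and at 160 and 135 in the mutant line without and with Dox. The highest value was 1.40 times the lowest, and between 1.92% and 2.63% of the genes on chromosomes were above BAX in each library. Day 4 was 0.943 times Day 0, a log2 fold change of -0.08 ± 0.19, and the intervals overlapped. Of the other effectors, BAK1 went from 15.7 to 18.5 FPKM between Day 0 and Day 4, a ratio of 1.18, and BOK from 12.4 to 18.8, a ratio of 1.51. None of the 3 effectors was called in either line.

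PMAIP1 (ENSG00000141682, chr18:57567180-57571538, plus strand) encodes NOXA, which binds MCL1 and promotes its degradation. It was at 94.2 FPKM at Day 0, at 76.8, 62.2, 55.1 and 45.7 on Days 1 to 4, and at 87.6 and 77.7 in the mutant line without and with Dox. All 4 Dox days of the JMJD3c line were below the 3 libraries without active JMJD3c, and each day was below the day before. The ratio of Day 4 to Day 0 was 0.485, a log2 fold change of -1.03 ± 0.15, the smallest error among the 4 called genes. The interval was 81.8 to 107 FPKM at Day 0 and 38.3 to 53.04 at Day 4. The intervals of Days 2 and 3 were also apart from that of Day 0, as for 4.49% and 4.34% of all genes, whereas that of Day 1 overlapped it. Relative to the mutant line the Day 4 ratios were 0.521 without Dox and 0.588 with Dox. Neither passed the 2-fold cutoff, but the intervals were apart in both pairs. Within the mutant line the ratio with Dox was 0.887 and the intervals overlapped. About 189 reads stood behind the Day 4 value and 285 behind that of Day 0. Since the ratio lies close to 0.5, the call depended on the scaling of the libraries: scaled to a common median ratio, it was 0.505, and by their sums without the highest genes 0.515.

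BBC3 (ENSG00000105327, chr19:47724081-47736023, minus strand) encodes PUMA, which binds all the main anti-apoptotic BCL2 proteins. It was at 11.3 FPKM at Day 0, at 9.82, 8.60, 7.64 and 4.52 on Days 1 to 4, and at 7.00 and 7.24 in the mutant line without and with Dox. Each day was below the day before, but both mutant libraries lay within the range of the Dox days. The ratio of Day 4 to Day 0 was 0.400, a log2 fold change of -1.16 ± 0.45, the largest among the 9 genes. The intervals were 6.63 to 15.9 at Day 0 and 2.01 to 7.25 at Day 4 and overlapped, with about 33 and 18 reads behind the values. Relative to the mutant line the Day 4 ratios were 0.645 and 0.624, which did not pass the cutoff. Dox gave a ratio of 1.03 in the mutant line. BBC3 and PMAIP1 were the 2 of the 8 genes above 4 FPKM that were lower at every step from Day 0 to Day 4, an order found in 3.55% of the 10878 genes above 4 FPKM in at least 1 library. Among 10863 genes compared by the Pearson correlation of log2(FPKM + 1) over the 7 libraries, those most like BBC3 were GLDC (r = 0.995), a mitochondrial glycine-cleavage enzyme, HSPA2 (r = 0.992), a heat shock protein, and RENBP (r = 0.987), a renin-binding protein. These points share their libraries and depth, and the r values are a description. GLDC was at 44.4 FPKM at Day 0 and 28.0 at Day 4, and HSPA2 at 13.2 and 3.99.

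**Figure D3:**
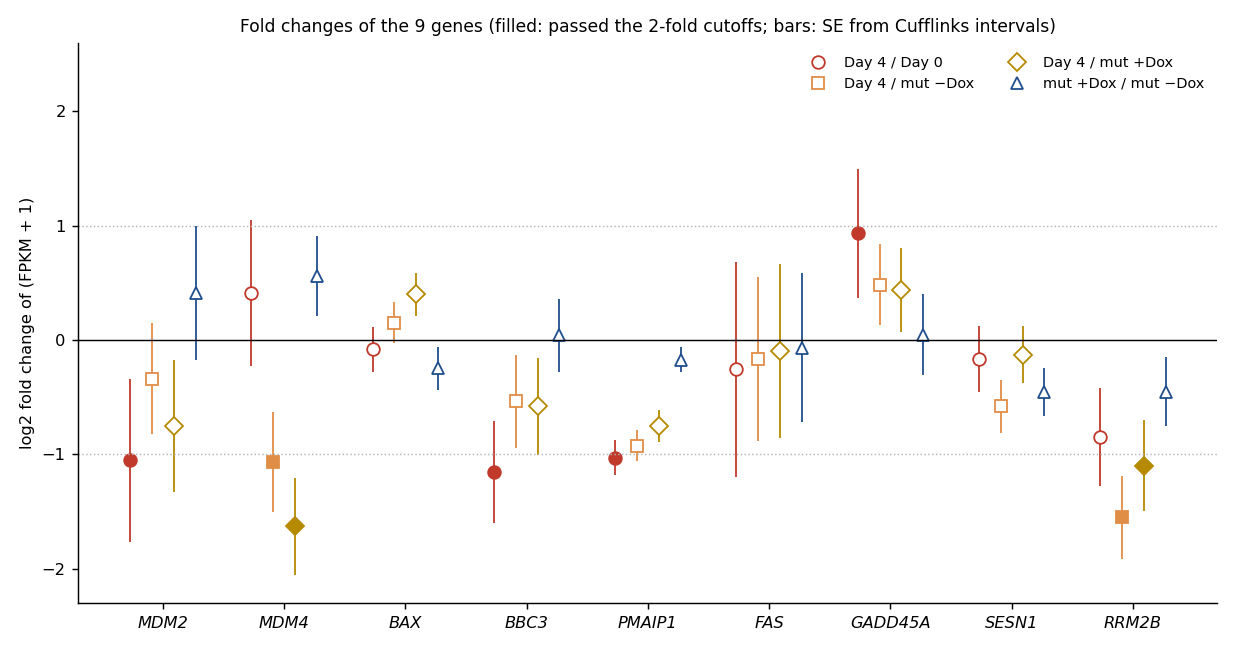
Log2 fold change of FPKM + 1 (y axis) of the 9 genes (x axis) for Day 4 against Day 0, against the mutant line without and with Dox, and for the mutant line with against without Dox, with bars for the SE from the Cufflinks intervals. Filled symbols passed the 2-fold cutoffs; PMAIP1 lies between -1.03 and -0.75 against all 3 references, whereas MDM4 lies at 0.41 against Day 0 and at -1.07 and -1.63 against the mutant line.

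FAS (ENSG00000026103, chr10:90750414-90775542, plus strand) encodes the death receptor through which FAS ligand starts the caspase cascade. It was at 1.44 FPKM at Day 0, at 0.318, 0.795, 1.15 and 1.04 on Days 1 to 4, and at 1.29 and 1.19 in the mutant line without and with Dox. All 4 Dox days were below the other 3 libraries, but the gap between 1.15 and 1.19 FPKM is far within the intervals, and only about 2 to 11 reads stood behind each value. A difference in FAS was not detectable at this depth, where 3 reads correspond to 0.347 to 0.713 FPKM. The annotated region also overlaps ACTA2, which lies on the other strand and did not exceed 2.15 FPKM. The libraries were made with a directional kit, but whether the counting used strand is not given in the sources used here, so it is unknown whether reads of these genes were told apart.

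Among the genes of growth arrest and repair, GADD45A (ENSG00000116717, chr1:68150744-68154021, plus strand) encodes a stress sensor with roles in DNA repair and p38 signalling. It was at 4.68 FPKM at Day 0, at 9.36, 7.19, 9.66 and 9.83 on Days 1 to 4, and at 6.75 and 6.99 in the mutant line without and with Dox. All 4 Dox days were above the other 3 libraries, although Day 2 exceeded the Dox-treated mutant line by little. The ratio of Day 4 to Day 0 was 2.10, a log2 fold change of 0.93 ± 0.57, and those of Days 1, 2 and 3 were 2.00, 1.54 and 2.06. The Day 0 interval of 0.869 to 8.66 FPKM overlapped that of Day 4, 6.08 to 13.6, and about 10 reads stood behind the Day 0 value. Against the mutant line without Dox, Day 4 gave a ratio of 1.46, which did not pass the cutoff. Its relatives were not called at Day 4: GADD45B was at 7.28 FPKM at Day 0 and 6.56 at Day 4, and GADD45G at 2.61 and 2.38. GADD45G just passed the cutoff on Day 1, at 5.22 FPKM. Its intervals, 0 to 6.52 FPKM at Day 0 and 1.74 to 8.70 on Day 1, overlapped. Of the 8 genes above 4 FPKM in at least 1 library, 1 (PMAIP1) had all 4 Dox days below the libraries without active JMJD3c and 1 (GADD45A) had them all above, beside 7.44% and 7.39% of all genes above that level.

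SESN1 (ENSG00000080546, chr6:109307640-109416022, minus strand), a sestrin that restrains mTORC1 signalling and limits oxidative stress, was at 8.86 FPKM at Day 0, at 12.2, 7.75, 9.33 and 7.79 on Days 1 to 4, and at 12.1 and 8.60 in the mutant line. The highest libraries were Day 1 and the untreated mutant line, so neither Dox nor the line ordered the values. Day 4 was 0.879 times Day 0, a log2 fold change of -0.17 ± 0.29. Of the other sestrins, SESN2 was at 8.82 FPKM at Day 0 and 7.57 at Day 4. SESN3 was upregulated on Day 1, at 19.9 FPKM, and on Day 2, at 15.2 FPKM, against 6.33 at Day 0, and it was at 5.11 at Day 4.

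RRM2B (ENSG00000048392, chr8:103216730-103251346, minus strand) encodes the p53-inducible subunit of ribonucleotide reductase, which supplies deoxynucleotides for repair. It was at 22.5 FPKM at Day 0, at 39.9, 26.8, 15.3 and 12.04 on Days 1 to 4, and at 37.2 and 27.0 in the mutant line without and with Dox. Days 3 and 4 were the lowest libraries, and Day 1 was the highest. At 0.536 times Day 0, a log2 fold change of -0.85 ± 0.43, Day 4 did not pass the cutoff. Relative to the mutant line RRM2B was downregulated at Day 4, with a ratio of 0.323 to the culture without Dox, where the intervals were apart, and of 0.447 to that with Dox. The ratio within the mutant line was 0.724. The other subunits of the enzyme, RRM1 and RRM2, were above Day 0 at Day 4 without a call. RRM1 was at 43.6 FPKM at Day 0 and 53.5 at Day 4. RRM2, which serves S phase, was at 88.3 and 130, with intervals apart. In the mutant line without and with Dox, RRM1 was at 60.6 and 57.6 FPKM and RRM2 at 108 and 124. Day 0 was the lowest library for both.

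With the untreated mutant line as the reference of Day 4, 2 of the 9 genes were downregulated (MDM4 and RRM2B), against 3.90% of 10045 genes, and none was upregulated, against 7.05%. Intervals were apart and lower for 2 genes, PMAIP1 and RRM2B, against 9.96% of all genes. With the Dox-treated mutant line, MDM4 and RRM2B were again downregulated, against 3.00% of 9999 genes, none was upregulated, against 6.56%, and intervals were apart and lower for PMAIP1 and MDM4, against 8.67%. The median log2 fold changes of the 9 genes were -0.54 and -0.58 in these comparisons, beside -0.02 over all genes in each. All 3 comparisons share the Day 4 library. PMAIP1 was the gene with intervals apart at Day 4 in each of them.

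Of 30 regulators of p53, 1 was upregulated at Day 4, CDKN2A, the locus of ARF and p16, from 1.21 to 6.63 FPKM, listed at 0 in both mutant libraries. Its intervals overlapped. BANP, a nuclear matrix protein that binds p53, was downregulated from 24.4 to 6.51 FPKM, and was at 9.73 in the untreated mutant line. Of the 30 genes, 27 were above 4 FPKM at Day 0 or Day 4. These 2 calls stood beside 5.87% of all genes above that level upregulated and 7.56% downregulated. The deacetylase SIRT1 was at 30.5 FPKM at Day 0 and 18.0 at Day 4, short of the cutoff but with intervals apart. The p53 kinase TP53RK was at 6.12 FPKM at Day 0 and 10.6 at Day 4.

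Of 51 other p53 target genes, 5 were called up and 4 down at Day 4 relative to Day 0, and the median over all 51 was 0.00. The shares of all genes called were 5.87% up and 7.56% down. Among the 51, none was upregulated in the mutant line and 1, POLH, was downregulated, beside 1.25% and 1.53% of all genes. CDKN1A (p21), the main effector of p53-dependent arrest, was at 7.60 FPKM at Day 0 and 6.44 at Day 4, and between 3.68 and 5.68 in the mutant line. Of 14 arrest and senescence targets, 11 were above 4 FPKM at Day 0 or Day 4, 3 were upregulated and none was downregulated. Among them, BTG2, an antiproliferative cofactor, went from 1.34 to 9.32 FPKM and the kinase PLK2 from 4.28 to 13.7, both with intervals apart. Of 17 repair and metabolism targets, 14 were above that level, none was upregulated and 3 were downregulated. They were the translesion polymerase POLH, from 9.82 to 2.09 FPKM, the ferredoxin reductase FDXR, from 25.2 to 8.14, and the fucosidase FUCA1, from 7.62 to 3.78. Intervals were apart for FDXR alone among these 3. POLH was at 11.1 FPKM on Day 3, above Day 0, and at 4.17 and 2.06 in the mutant line without and with Dox. There, FDXR was at 12.3 and 10.4 FPKM and FUCA1 at 4.29 and 3.72. Day 0 was the highest library for FDXR and FUCA1. Of 20 apoptosis targets, 15 were above that level. The 2 upregulated were the decoy receptor TNFRSF10D, from 2.19 to 6.03 FPKM, and PHLDA1, from 6.69 to 20.5, both with intervals apart. The ferrireductase STEAP3 was downregulated from 6.31 to 2.70 FPKM. Relative to the untreated mutant line, 4 of the 5 upregulated genes were called again (all but PLK2) and none of the 51 was downregulated, beside 7.05% up and 3.90% down over all genes. Relative to the Dox-treated mutant line, 7 were called up and 1, STEAP3, down, beside 6.56% and 3.00% of all genes. In these 2 comparisons, 39 and 37 of the 51 were above 4 FPKM. Other targets with large differences were short of the cutoff. The arrest genes RPRM and TOB1 were at 19.9 and 7.76 FPKM at Day 0 and at 11.3 and 5.47 at Day 4. The metabolic genes C12orf5 (TIGAR) and TP53I3 were at 12.1 and 14.5 FPKM at Day 0 and at 20.2 and 24.4 at Day 4. The nuclease AEN was at 52.1 FPKM in the Day 0 library and 32.1 in that of Day 4, with intervals apart, and at 35.6 in the untreated mutant line.

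**Figure D4:**
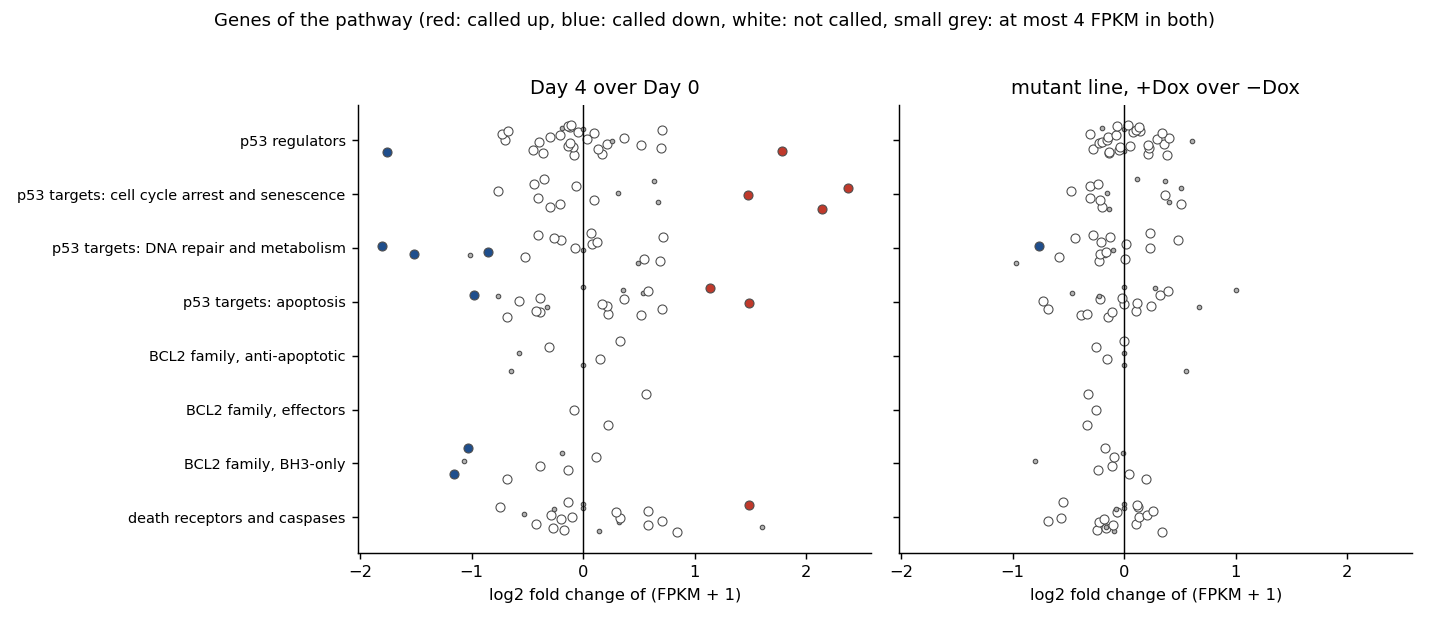
Log2 fold change of FPKM + 1 (x axis) of each gene in 8 lists (rows) at Day 4 over Day 0 (left) and in the mutant line with over without Dox (right); red and blue points were called up and down, white points were not called, and small grey points were at 4 FPKM or less in both libraries. In the mutant line POLH is the only coloured point, whereas at Day 4 calls lie on both sides of 0 among the p53 targets and on the lower side alone, BBC3 and PMAIP1, among the BH3-only genes.

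The apoptosis machinery on which these targets act was examined as the BCL2 family and the death receptor pathway. Of 8 BH3-only genes, BBC3 and PMAIP1 were the 2 downregulated at Day 4 relative to Day 0, and none was upregulated. Both are among the 9 genes, so this list adds no separate evidence for them, and 7.56% of all genes were downregulated. The summed level of the 8 was 158 FPKM at Day 0, 140, 123 and 125 on Days 1 to 3 and 90.1 at Day 4, and it was 149 and 137 in the mutant line. PMAIP1 made up 59.7% of the sum at Day 0 and 50.7% at Day 4. Without PMAIP1 and BBC3 the sum of the other 6 was 52.2 FPKM at Day 0 and 39.9 at Day 4, and between 52.1 and 62.0 in the other 5 libraries. Most of this difference lay in BAD and BID, named here after their values were seen. BAD was at 13.3 FPKM at Day 0, 7.91 at Day 4, and 17.6 and 20.4 in the mutant line without and with Dox; at Day 4 it was downregulated against both mutant libraries but not against Day 0. BID was at 19.8 FPKM at Day 0 and 14.9 at Day 4. BCL2L11 (BIM) was at 8.30 and 7.47 FPKM. BMF was at 7.73 FPKM at Day 0, 8.48 at Day 4, and 4.52 and 4.19 in the mutant line without and with Dox. At Day 4 BMF was upregulated against the Dox-treated mutant line, with overlapping intervals, but not against Day 0 or the untreated mutant line. None of the 6 anti-apoptotic genes was called. Their sum was 115 FPKM at Day 0 and 134 at Day 4, and 135 and 131 in the mutant line. BCL2L1 was at 31.0 FPKM at Day 0 and 34.5 at Day 4, and BCL2L2 at 8.90 and 6.99. MCL1, the partner of NOXA, was at 72.9 FPKM in the Day 0 library and 92.2 in that of Day 4, with intervals apart, and at 92.1 and 92.2 in the mutant line without and with Dox. The ratio of the BH3-only sum to the anti-apoptotic sum was 1.37 at Day 0, 1.13, 1.07 and 0.908 on Days 1 to 3 and 0.670 at Day 4, and 1.10 and 1.05 in the mutant line. Day 4 was the lowest and Day 0 the highest of the 7 libraries in this ratio, and the untreated mutant line lay with Days 1 and 2. Of 22 death receptor and caspase genes, 1 was upregulated at Day 4, the kinase RIPK1, from 3.07 to 10.4 FPKM with intervals apart, and it was at 6.43 FPKM in the untreated mutant line. None was downregulated, and none was called in the mutant line. Of the 22 genes, 15 were above 4 FPKM at Day 0 or Day 4. The shares over all genes above that level were 5.87% up and 7.56% down. The protease HTRA2 was at 17.3 FPKM at Day 0 and 9.96 at Day 4, the executioner caspase gene CASP6 at 23.3 and 17.1, and the inhibitor of apoptosis BIRC2 at 12.4 and 23.1, all short of the cutoff. In the mutant line without and with Dox, HTRA2 was at 6.98 and 7.69 FPKM, CASP6 at 16.9 and 18.2, and BIRC2 at 14.2 and 18.3. Day 0 was the highest of the 7 libraries for HTRA2 and CASP6.

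**Figure D5:**
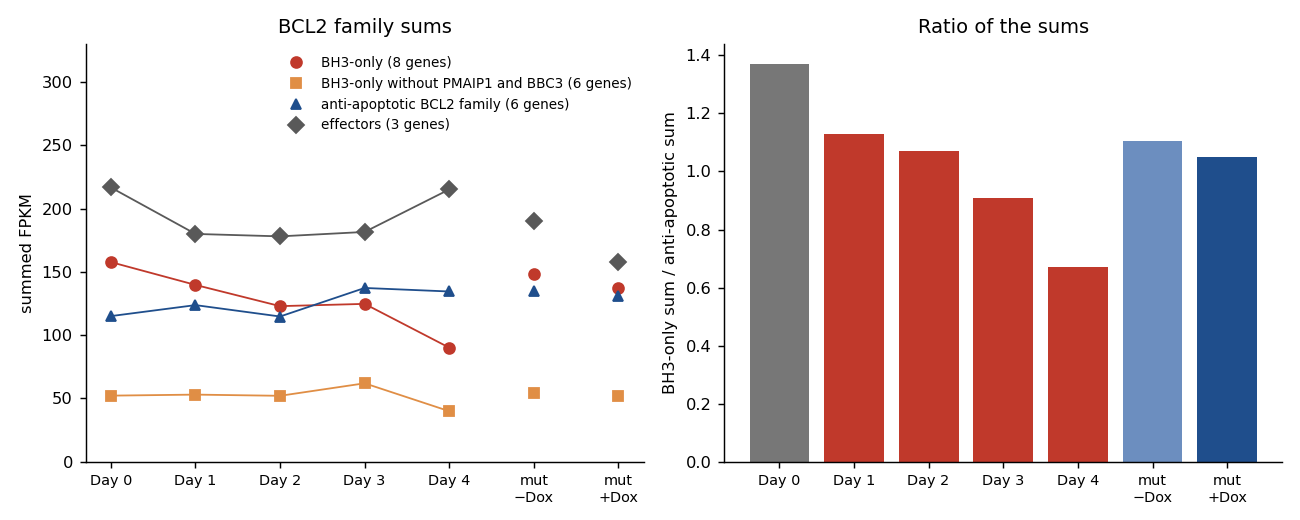
Left, summed FPKM (y axis) of the BCL2 family groups in the 7 libraries (x axis), with lines joining the days of the JMJD3c line; right, ratio of the BH3-only sum to the anti-apoptotic sum, as bars from 0. The BH3-only sum is lowest at Day 4, at 90.1 FPKM, and the ratio is 1.37 at Day 0, 0.670 at Day 4 and 1.10 and 1.05 in the mutant line.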

How the data were processed

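RNA-seq libraries of 7 samples, 1 per condition, were sequenced by the authors as 150-base single-end reads. Reads were mapped to hg19 with TopHat2 2.0.13, and FPKM were calculated with Cufflinks 2.1.1. The submitters' processing notes also name CASAVA 1.4. The authors deposited the FPKM of each gene with the bounds of its 95% interval. No counts were used.

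From the deposited FPKM, ratios were formed and genes were called at a ratio above 2 or below 0.5 with more than 4 FPKM in the higher sample of the call. Log2 fold changes used a pseudocount of 1, which understates changes of low genes, and their SE was taken from the interval widths. No test was made, because no condition has replicates. The share of all genes called under the same rule was calculated for each comparison. The 9 genes and the lists were chosen with earlier results of these data known. Named besides the 9 were CDKN1A, the relatives of GADD45A, SESN1 and RRM2B, listed genes called at Day 4 or in the mutant line, and the 2 highest and 2 lowest log2 fold changes per list among genes above 4 FPKM in either sample. Some genes that this rule names are not reported here. The 3 genes most like a member were sought for the member with the largest log2 fold change.

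Depth was estimated from the commonest low FPKM step among 874 genes whose 1 annotated transcript has 1 exon, after taking 200 bases off its length. Between 79.9% and 87.0% of the low values used lay within 0.1 of a whole number of reads. Floors of 3 reads and read numbers follow from these depths and the transcript lengths of GENCODE release 44 on GRCh37, and cover counting error only. Of the other marker lists, 8 fibroblast markers summed to between 94.4 and 168 FPKM, with DCN and LUM at 0 in every library. The highest single marker made up most of that sum in each library, and 3 of the 8 were above 4 FPKM. The 5 trophoblast markers summed to between 2.99 and 6.53 FPKM, with CGA at 0 in every library. Promoter sequences are those of RefSeq (GRCh38.p14). The calculations used Python 3.11.15, numpy 2.4.6, pandas 2.3.3 and matplotlib 3.10.9. The rule for the calls was also run on simulated data. The settings of that simulation are not given here. It therefore cannot show how reliable calls near the cutoffs are at the depth of these libraries. The alternatives changed the FPKM minimum, the fold, the use of the intervals, the pseudocount, the scaling, the treatment of entries of 1 name, the treated sample and the reference.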

Additional observations from a re-analysis of the deposited data

Results flagged for a closer look

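For MDM2 and BBC3, all 4 Dox days of the JMJD3c line were below Day 0, whereas the Dox-treated mutant line was above the untreated one. The log2 fold change at Day 4 minus that in the mutant line was -1.46 for MDM2 and -1.20 for BBC3. This difference between the lines was not tested, since each condition has 1 library and all 4 days share Day 0. The SE of the difference from the Cufflinks intervals was 0.92 for MDM2 and 0.55 for BBC3. In the mutant line itself the log2 fold change was 0.41 for MDM2 and 0.04 for BBC3, and neither was called.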

How the results depend on the processing

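The 4 calls at Day 4 among the 9 genes depended on the settings. When the Cufflinks intervals also had to be apart, 1 call was left, PMAIP1. The count was 2 when samples were scaled by the sum of FPKM without the highest genes, where the ratios of MDM2 and PMAIP1 were 0.501 and 0.515, and it was 2 with the untreated mutant line, 2 with the Dox-treated mutant line, 2 with the mean of the 3 libraries without active JMJD3c, and 2 with Day 1 as the reference. The last pair of references was chosen after seeing the data. The cause was not tested. With FPKM minimums of 1 and 10, a fold of 1.5, scaling by the median ratio, rows of 1 name summed or Day 3 as the treated sample, the count was between 3 and 5. In the mutant line no gene was called, except 1, MDM4, at a fold of 1.5. The median log2 fold change of -0.26 at Day 4, the value of FAS, was -0.74 against the mean of the 3 libraries. It was between -0.58 and -0.13 under the other alternatives. No called log2 fold change of a single gene changed sign under the alternatives run; MDM4, BAX and FAS, not called at Day 4, did so under other references, BAX also when scaled by the sum, and SESN1 with Day 3 as the treated sample. Of the alternative log2 fold changes of single genes, 23 of those at Day 4 moved by more than their SE and 67 did not, and all 45 in the mutant line stayed within it. Scaling raised the median of all genes at Day 4 by 0.06 or 0.08, from -0.06 to -0.01 or 0.02, and the calls over all genes went from 602 up and 775 down to 670 and 671 with the median ratio and 685 and 624 with the sum. No paired analysis was possible because each condition has 1 library. Depth limits FAS, GADD45A and BBC3, with about 2 to 46 reads per value.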
